A study of Sorghum bicolor with 34 samples.

Results

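Among 47110 sorghum transcripts, 200 were studied here that were lower under limiting phosphorus (LP) than under sufficient phosphorus (SP) both in the apex of the primary root and in the apices of lateral roots. They were selected on their measured levels. TPM is a level corrected for transcript length and library size, and d is log2 of (TPM + 1) under LP over (TPM + 1) under SP. A transcript passed when d was -1 or lower in each of the 4 LP-SP pairs of root apex libraries and in the 1 pair of lateral libraries, which 291 did. EES05808 and EES07591 were set aside by the rule, and the 200 of the remaining 289 with the lowest largest d were kept. The values in both kinds of apex are therefore a description with no test, and the elongation zone is the region the choice did not use.

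The plants were BTx623, the reference genotype of grain sorghum, grown hydroponically with 2.5 µM (LP) or 45 µM (SP) phosphate. They were sampled after 10 days on these media. Before that, seedlings were germinated and started in SP solution, from which the LP plants were transferred. The root apex was the terminal 2 cm of seminal roots, the elongation zone the stretch from 2 to 4 cm behind the tip, and the lateral root apex the terminal 2 cm of long lateral roots, with 10 plants pooled per replicate. The groups were root apex LP and SP, elongation zone LP and SP (2 libraries each) and lateral root apex LP and SP (1 library each, where the methods state 2). Apex and elongation zone were cut from the same seminal roots, so the elongation zone is a separate tissue but not a separate set of plants. The sample labels call the elongation zone the intermediate root. For root apex LP replicate 2 the title gives the root apex but the tissue label gives the whole root. The rule uses this library, so it stayed in. In such bulk samples, fewer cells of a type and less RNA per cell cannot be told apart.

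Root tips carry the cap, the dividing cells of the meristem and the youngest differentiating cells, and cells behind them lengthen and take on their final identity. Lateral roots repeat that order on a smaller scale. When phosphate runs short, plants change root growth, release phosphate from organic compounds and replace phospholipids of their membranes, and in Arabidopsis the root tip is where low external phosphate acts on growth. Here 7 of the 200 transcripts carry a gene name from the study's tables, 6 of them with a protein family. The transcripts without a gene name are given by identifier with no role. Tissue markers could not be checked against the labels for the same reason, and no sequences are printed, because the references used here hold none for these identifiers.

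Total estimated counts ranged from 10114584 to 19067049 per library. Fewest transcripts were above 0 in elongation zone LP replicate 2 (28206) and the lateral SP library (28416), where the range elsewhere was 31840 to 36756. These libraries also held 83 and 266 transcripts listed at 0 that had 1 TPM or more in each of the other 9 libraries, against 1 to 15 elsewhere. Of the 200 transcripts, 1 was among the 83 and 0 among the 266. The rule fixed the 0, since a transcript needed 1 TPM or more in lateral SP to pass. The 83 leave out every transcript under 1 TPM in an LP apex library, where the chosen transcripts are low. So neither count measures how far low detection reaches the 200, of which 29 were at 0 TPM in elongation zone LP replicate 2. The 2 second replicates of the elongation zone and both lateral libraries had shorter fragments (166.7 to 168.8 bases, as transcript length minus effective length) than the other 6 libraries (185.4 to 189.8 bases), and the part of these differences in the results below was not tested unless a value is given.

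The 200 transcripts spanned a wide range of abundance. Their mean level over the 3 SP apex libraries ran from 1.54 to 12304.5 TPM with a median of 16.4 TPM, and 32 of them reached 100 TPM or more, 107 lay at 10 to under 100 TPM and 61 lay under 10 TPM. Their median level was 1.78 and 1.21 TPM in root apex LP, against 16.8 and 14.5 TPM in root apex SP. It was 2.66 TPM in lateral root apex LP, against 16.2 TPM in lateral root apex SP. In the elongation zone the medians lay closer together, at 4.46 and 5.27 TPM under LP, against 12.0 and 14.2 TPM under SP. All TPM of the 200 added up to 0.254% and 0.252% of the library in root apex LP, against 1.75% and 1.63% in root apex SP. Of the 200, 22 were at 0 TPM in at least 1 LP apex library, 37 stayed under 1 TPM in all 3 LP apex libraries, and 3 were at 0 in all of these.

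**Figure D1:**
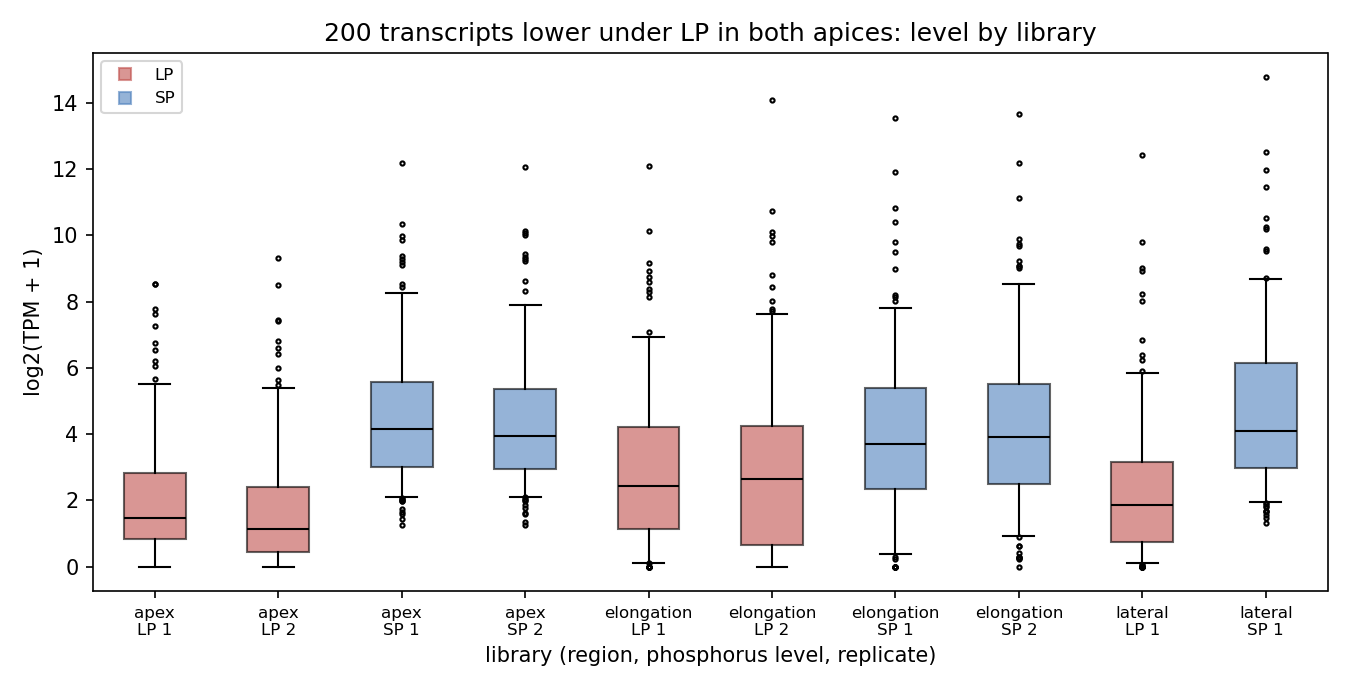
Level of the 200 transcripts as log2(TPM + 1) in each of the 10 libraries, LP in red and SP in blue. Boxes span the quartiles with the median as a line, whiskers reach the 5th and 95th percentiles and points lie outside them. The LP medians are 1.78 and 1.21 TPM in the root apex and 4.46 and 5.27 TPM in the elongation zone, so the LP boxes sit lower in the apices, which chose the transcripts, than in the elongation zone.

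The deepest differences belonged to transcripts that were close to absent from LP apices. EES16044 had the lowest largest d, -6.59. It stood at 0.428 and 2.33 TPM in root apex LP, against 345 and 397 TPM in root apex SP. In the lateral apex it stood at 3.32 TPM under LP, against 416 TPM under SP. The same transcript was scarce in the elongation zone at both phosphorus levels, with 0.640 and 1.78 TPM under LP, against 0.214 and 14.1 TPM under SP. There the groups overlapped, and the second SP library alone was above the others.

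KXG39529 and KXG28236 had the next lowest values, and under SP both were far higher in the 1 lateral library than in the root apex. KXG39529 had 0.264 and 0.334 TPM in root apex LP, against 30.2 and 61.7 TPM in root apex SP, and 0.293 TPM in lateral LP, against 1216 TPM in lateral SP. KXG28236 had 0 and 0.241 TPM in root apex LP, against 25.5 and 37.7 TPM in root apex SP, and 1.16 TPM in lateral LP, against 1161 TPM in lateral SP. Both were near the floor in the elongation zone, where KXG39529 had 0.262 and 0.605 TPM under LP, against 0 and 4.51 TPM under SP, and KXG28236 had 0.991 and 1.52 TPM under LP, against 2.55 and 2.76 TPM under SP. The LP libraries of KXG28236 both lay below its SP libraries, and those of KXG39529 overlapped them.

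The other 5 of the 8 transcripts with the lowest largest d differed in the elongation zone. EES07384 had 1.75 and 2.06 TPM in root apex LP, against 56.3 and 68.8 TPM in root apex SP, and 4.31 and 9.70 TPM in elongation zone LP, against 4.03 and 10.6 TPM in elongation zone SP, with overlapping groups there. KXG34722 had 2.54 and 2.70 TPM in root apex LP, against 30.5 and 42.9 TPM in root apex SP, and 13.3 and 11.1 TPM in elongation zone LP, against 8.80 and 7.35 TPM in elongation zone SP. OQU80321 had 1.07 and 0.361 TPM in root apex LP, against 54.5 and 48.1 TPM in root apex SP, and 1.42 and 0 TPM in elongation zone LP, against 38.4 and 13.3 TPM in elongation zone SP. So among transcripts with like differences in the apex, the elongation zone held overlapping levels under LP and SP, values under LP above both SP values, or values far below them. OQU84730 had 4.93 and 1.70 TPM in elongation zone LP, against 14.5 and 12.3 TPM in elongation zone SP. KXG23555 was at 0 and 0.159 TPM in elongation zone LP, against 0 and 5.03 TPM in elongation zone SP. None of these 8 passed the elongation zone test described below (adjusted p 0.115 to 0.838, edgeR).

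Several of the most abundant transcripts had high levels in the elongation zone at both phosphorus levels. EES09048 had the highest mean in SP apices. It had 372 and 640 TPM in root apex LP, against 4653 and 4304 TPM in root apex SP, and 5462 TPM in lateral LP, against 27957 TPM in lateral SP. In the elongation zone it had 4368 and 17564 TPM under LP, against 11936 and 12997 TPM under SP, so that its LP libraries lay on either side of its SP libraries. EES09048 alone carried much of the summed level: without it the 200 transcripts took 0.642% and 0.896% of elongation zone LP, against 1.51% and 1.84% of elongation zone SP, and with it 1.08% and 2.65% under LP, against 2.70% and 3.14% under SP.

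KXG22149 and OQU88169 had the same apex pattern at lower levels. KXG22149 had 197 and 359 TPM in root apex LP, against 1314 and 1034 TPM in root apex SP, and 1134 and 1698 TPM in elongation zone LP, against 1834 and 2225 TPM in elongation zone SP. OQU88169 had 108 and 172 TPM in root apex LP, against 586 and 605 TPM in root apex SP, and 431 and 887 TPM in elongation zone LP, against 505 and 816 TPM in elongation zone SP. OQU88169 overlapped in the elongation zone, and KXG22149 was below SP in both LP libraries without passing the test (log2 fold change -0.15, SE 0.52, adjusted p = 0.913, edgeR). OQU85020 was different, with 72.5 and 113 TPM in root apex LP, against 667 and 622 TPM in root apex SP, and 481 and 1106 TPM in elongation zone LP, against 3883 and 4701 TPM in elongation zone SP. The groups of OQU85020 were far apart in the elongation zone, yet the test did not pass (log2 fold change -2.01, SE 0.61, adjusted p = 0.208, edgeR).

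The remaining abundant transcripts included 2 sets with adjacent accession numbers. EES08119 had 373 and 172 TPM in root apex LP, against 925 and 1076 TPM in root apex SP, and 284 and 160 TPM in elongation zone LP, against 901 and 949 TPM in elongation zone SP. EES08122 had 217 and 96.6 TPM in root apex LP, against 1021 and 1124 TPM in root apex SP, and 30.0 and 17.8 TPM in elongation zone LP, against 223 and 371 TPM in elongation zone SP. EES08121, between them, had 6.81 and 0 TPM in root apex LP, against 46.3 and 63.7 TPM in root apex SP. OQU83040 had 155 and 63.3 TPM in root apex LP, against 548 and 649 TPM in root apex SP, and its neighbour OQU83039 had 93.2 and 31.9 TPM, against 624 and 693 TPM. In each of these 5 transcripts the LP libraries of the root apex lay below the SP libraries, as the rule required. Whether neighbours are near-identical copies or isoforms, between which kallisto could split reads, could not be checked, so their separate levels are uncertain.

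**Figure D2:**
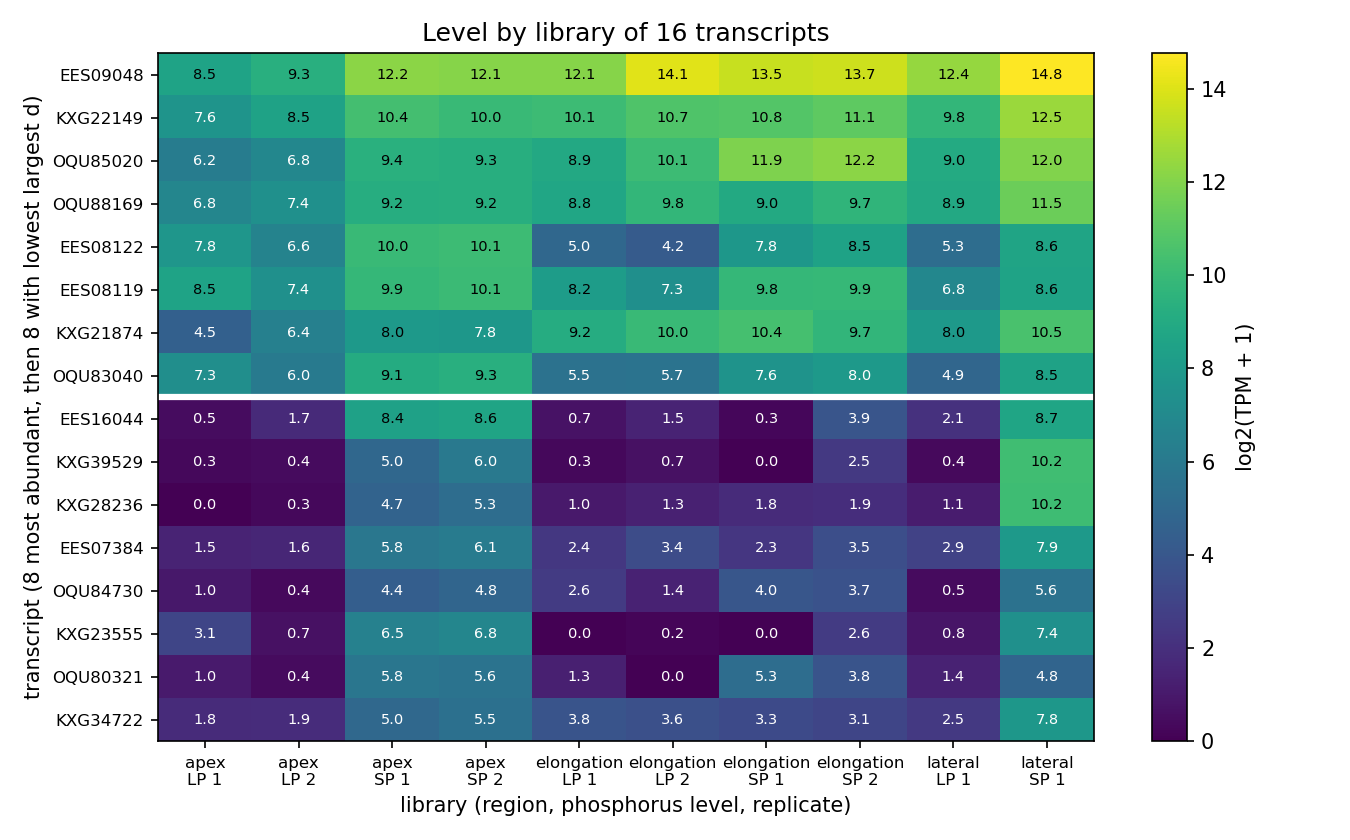
Level as log2(TPM + 1), printed in each cell, of the 8 transcripts with the highest mean TPM in SP apices (above the white line) and the 8 with the lowest largest d (below it) in the 10 libraries. The upper rows stay bright in elongation zone LP for EES09048, KXG22149, OQU85020, OQU88169 and KXG21874, and rows such as EES16044 and KXG28236 are dark in the elongation zone at both phosphorus levels.

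Both kinds of apex shared the direction by selection, and the size of the difference varied. The mean d over the 4 root apex pairs had a median of -2.30 (lowest -7.41, highest -1.31), and the lateral d had a median of -1.97 (lowest -9.88, highest -1.20). For 49 transcripts the lateral d was lower than every root apex d, for 80 it was higher than every root apex d, and for 71 it fell within them. Under SP, the lateral library stood above both root apex libraries for 105 transcripts, below both for 76 and between them for 19. The rule used all these libraries and the counts were not made over all transcripts, so nothing is read from them. The median log2 difference under SP, lateral less root apex, was 0.25 for the 200. Over all transcripts at 1 TPM or more in the 3 SP apex libraries it was -0.81. Their median d was -0.14 in the root apex and 0.34 in the lateral apex. The rule used these libraries too, and lateral SP is 1 library with low detection, so nothing is read from these medians. At the edge of the selection, EER92967, KXG25275 and OQU77307 had a largest d of -1.21, -1.21 and -1.20, and the first transcripts left out, KXG33359, EES07369 and KXG27939, had -1.20, -1.20 and -1.19.

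The elongation zone gave the one LP against SP contrast that was not used to choose the transcripts. Of the 200, all tested by edgeR's quasi-likelihood test on estimated counts (adjusted p under 0.05, with p-values adjusted over 33039 transcripts), 19 were lower under LP (9.5%) and 1 was higher (0.5%), where the background is 0.233% lower and 0.415% higher over all tested transcripts. Over the 16156 tested transcripts that had 1 TPM or more in the 3 SP apex libraries, a level every chosen transcript had to reach, 0.34% were lower. The median log2 fold change was -1.05 for the 200 transcripts (quartiles -2.79 and 0.26, lowest -9.15, highest 3.95), beside 0.01 for all tested transcripts. With the transcripts at 0 counts in both LP libraries set to a bound of 3 counts over the group, the median was -1.01. At an unadjusted p under 0.05, 85 of the 200 were lower (42.5%) and 17 higher (8.5%), beside 5.88% and 8.74% of all tested transcripts. In the same fit 19 of the 200 were called lower in the root apex (background 0.182%) and 35 in the lateral root apex (background 0.303%), which the selection used and from which nothing is read.

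The count of calls depended on single libraries. It was 0 lower without root apex SP replicate 1 or 2 (background 0.00608% each) or without elongation zone SP replicate 1 or 2 (no transcript called at all), 6 without root apex LP replicate 1 or 2 (background 0.0365% and 0.0395% of all tested transcripts), 7 without elongation zone LP replicate 2 (background 0.138%) and 51 without elongation zone LP replicate 1, where 8.18% of all tested transcripts were called lower. In these 8 fits the median log2 fold change of the chosen transcripts was -1.37 to -0.78, beside -0.25 to 0.03 for all tested transcripts. The spread in the test was shared with the root apex libraries that chose the transcripts. A fit to the 4 elongation zone libraries alone called none of the 184 chosen transcripts it tested (edgeR). In the same fit 0 of all 27945 tested transcripts were called lower and 0 higher, so nothing about the chosen transcripts is read from it. At an unadjusted p under 0.05 that fit had 72 lower and 14 higher. No background is given for these unadjusted counts, so nothing is read from them. On all 10 libraries DESeq2 called 64 lower (background 2.25%) and limma on log2(TPM + 1) 48 (background 1.2%).

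The LP libraries of the elongation zone lay below both SP libraries for 121 transcripts (60.5%, background 38.1% of 16159 transcripts at 1 TPM or more in the 3 SP apex libraries), above both for 27 (13.5%, background 17.3%), and overlapped them for 52. A d of -1 or lower in all 4 pairs was found for 76 transcripts (38%, background 2.97%) and a d of 1 or higher in all 4 for 7 (3.5%, background 3.01%). LP replicate 1 alone gave 87 transcripts at -1 or lower against both SP libraries (43.5%, background 4.39%), and LP replicate 2 alone 92 (46%, background 21.0%). The pairs with the same replicate number, which also share their fragment length, had median d of -0.996 for number 1 and -1.17 for number 2. On the TPM scale the median d in the elongation zone was -0.26 for the background and on TMM-normalized CPM it was 0.00. Relative to that, the median of the 200 transcripts was -0.80 and -0.81 on the log2 scale.

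**Figure D3:**
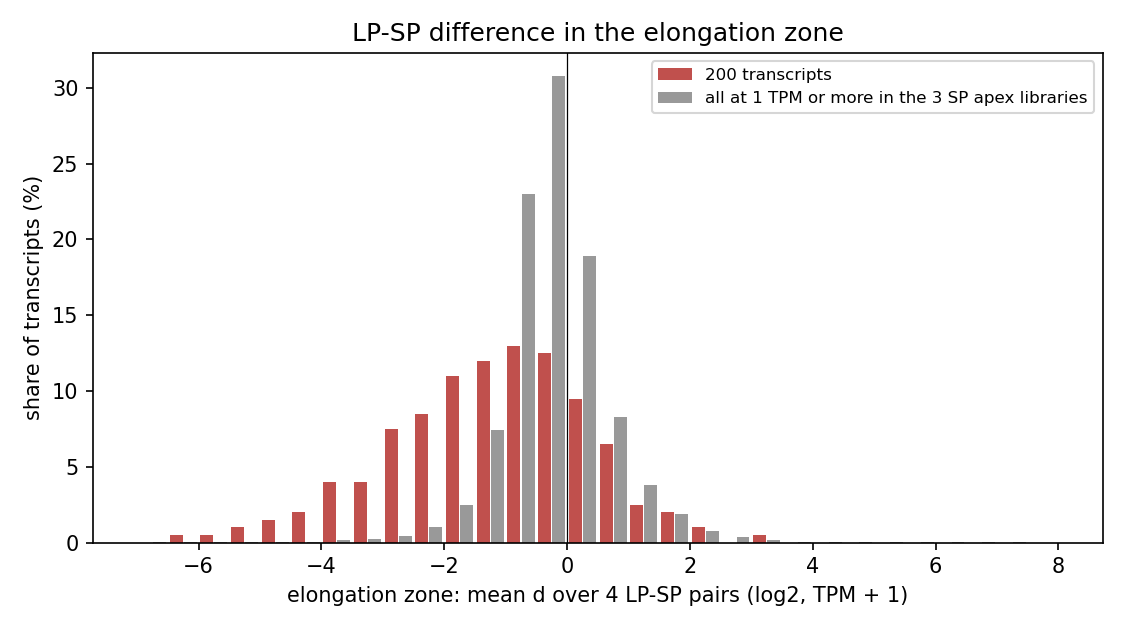
Share of transcripts (%) by mean d over the 4 elongation zone pairs, in bins of 0.5, for the 200 transcripts (red) and for all transcripts at 1 TPM or more in the 3 SP apex libraries (grey). The median is -1.06 for the 200 transcripts and -0.26 for the background, and the red bars reach from the lowest values to a few at 2 and above.

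The 19 transcripts called lower in the elongation zone had log2 fold changes between -7.03 and -2.03 and adjusted p-values of 0.0151 to 0.049 (edgeR). The strongest by p was EER99917, with 0.306 and 0.290 TPM in elongation zone LP, against 22.4 and 38.5 TPM in elongation zone SP (log2 fold change -6.35, SE 0.56, adjusted p = 0.0151, edgeR). KXG28042 had 14.0 and 9.65 TPM under LP, against 92.3 and 76.8 TPM under SP (log2 fold change -2.55, SE 0.24, adjusted p = 0.0163). EES15803 had 2.32 and 2.11 TPM under LP, against 24.6 and 19.1 TPM under SP (log2 fold change -2.98, SE 0.31, adjusted p = 0.0241). In all of these the LP libraries were near each other and well below the SP libraries.

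EES13242 and EES13040 were far more abundant in the elongation zone than in the apices under SP. EES13242 had 1.35 and 0.180 TPM in elongation zone LP, against 85.9 and 69.5 TPM in elongation zone SP (adjusted p = 0.0251, edgeR), while root apex SP held 19.0 and 16.6 TPM. EES13040 had 5.64 and 2.91 TPM in elongation zone LP, against 70.1 and 93.1 TPM in elongation zone SP (adjusted p = 0.0333, edgeR), while root apex SP held 13.4 and 9.35 TPM. KXG29157 had the largest called fold change, -7.03, with 1.31 and 0.929 TPM in elongation zone LP, against 122 and 231 TPM in elongation zone SP. EES03134 was similar, with 0.223 and 0.526 TPM under LP, against 69.8 and 41.4 TPM under SP, while root apex SP held 2.97 and 3.13 TPM. These 4 transcripts had their highest SP level in the elongation zone, and each was close to absent there under LP except EES13040.

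OQU92783 had 25.6 and 24.9 TPM in elongation zone LP, against 157 and 193 TPM in elongation zone SP (log2 fold change -2.48, SE 0.30, adjusted p = 0.0333, edgeR). EES08122 and OQU83039, both described above, were called with log2 fold changes of -3.39 and -3.29, and their neighbours EES08119 and OQU83040 were not (adjusted p = 0.0686 and 0.0988, edgeR). The other 9 called transcripts were KXG37715, EER91545, OQU91605, KXG37523, EER99464, EER95563, EES07315, EES02168 and the cytochrome P450 EER93094. EES08121, KXG29157, EES03134 and OQU83039, and those 9 apart from EER93094, were named outside the fixed rule, after their values were seen.

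The 8 remaining transcripts called lower covered low and moderate levels. EER91545 was the most abundant of them, with 6.32 and 9.36 TPM in elongation zone LP, against 70.0 and 147 TPM in elongation zone SP. OQU91605 had 4.46 and 5.34 TPM under LP, against 52.6 and 71.5 TPM under SP. KXG37715 had 0.370 and 0.115 TPM under LP, against 11.9 and 6.05 TPM under SP. In each the LP libraries were well below both SP libraries. EER95563 had 0.748 and 1.05 TPM in elongation zone LP, against 15.1 and 39.0 TPM in elongation zone SP. KXG37523 had 2.83 and 2.64 TPM under LP, against 24.5 and 22.7 TPM under SP. EES02168 had 3.92 and 3.44 TPM under LP, against 18.3 and 20.7 TPM under SP. The replicates of KXG37523 and EES02168 lay close together at each phosphorus level, and the SP libraries of EER95563 lay further apart. EES07315 had 4.49 and 2.55 TPM under LP, against 18.0 and 16.4 TPM under SP, and EER99464 had 2.43 and 1.28 TPM under LP, against 12.1 and 16.2 TPM under SP.

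**Figure D4:**
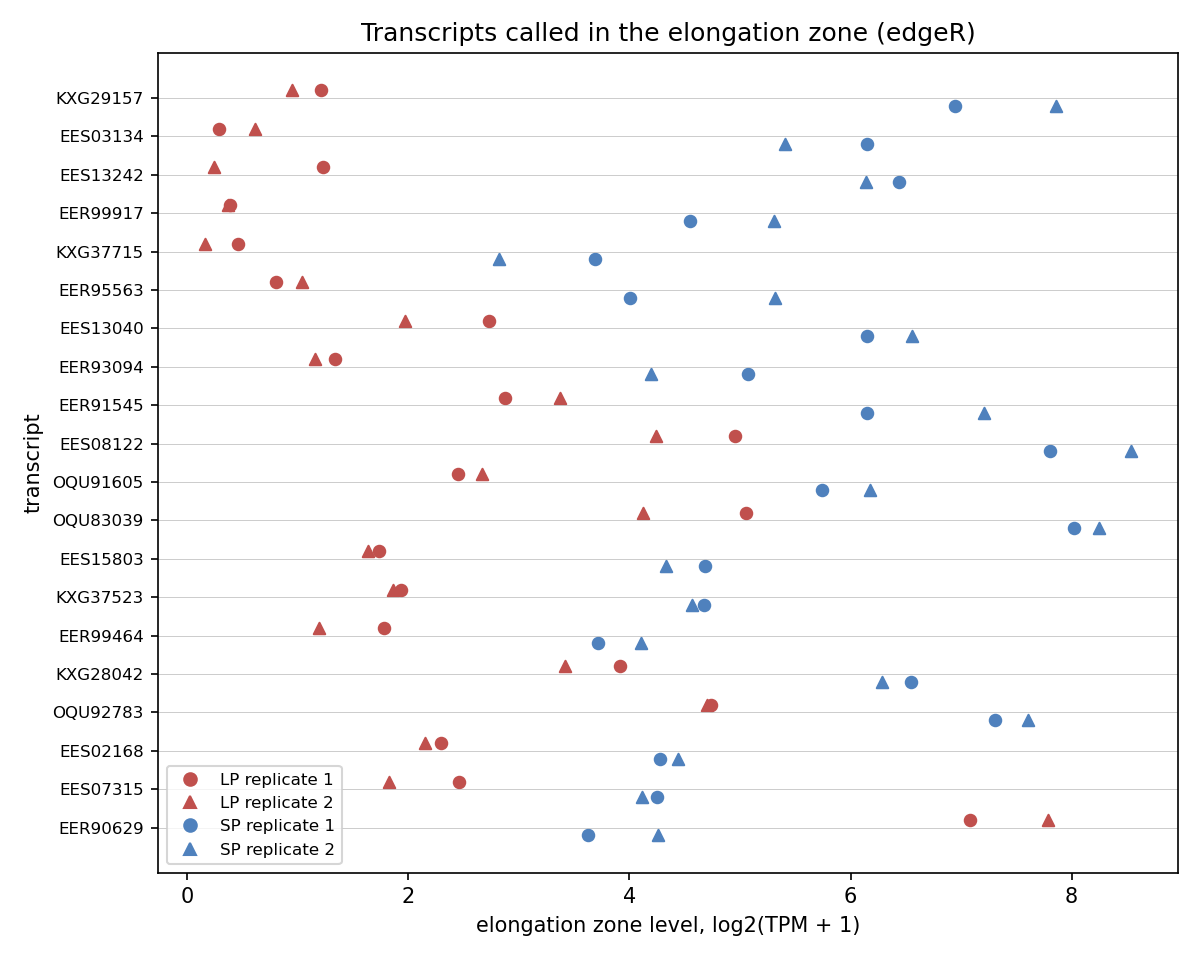
Level as log2(TPM + 1) in the 4 elongation zone libraries of the 20 transcripts called by edgeR, LP in red above SP in blue on each line, with circles for replicate 1 and triangles for replicate 2. In the 19 transcripts called lower both LP points lie left of both SP points, and in EER90629, with 135 and 219 TPM under LP and 11.4 and 18.1 TPM under SP, they lie right of them.

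EER90629, and 6 other transcripts, went the other way. With a d of 1 or higher in all 4 elongation zone pairs they made up 3.5% of the 200, near the background of 3.01%. EER90629 was called higher in the elongation zone, with 135 and 219 TPM under LP, against 11.4 and 18.1 TPM under SP (log2 fold change 3.95, SE 0.58, adjusted p = 0.0484, edgeR). Leaving out 1 library kept a log2 fold change of 3.22 to 4.37, with an adjusted p of 0.0669 to 0.303 in each of these fits except the one without elongation zone LP replicate 1 (0.0107). In the apices the same transcript had 27.9 and 43.8 TPM in root apex LP, against 145 and 140 TPM in root apex SP, and 298 TPM in lateral LP, against 768 TPM in lateral SP. The other 6 were singled out after their values were seen. KXG21493 had 121 and 211 TPM in elongation zone LP, against 34.2 and 38.6 TPM in elongation zone SP, and 1.24 and 0.968 TPM in root apex LP, against 18.4 and 9.01 TPM in root apex SP. At either phosphorus level KXG21493 was thus higher in the elongation zone, above every root apex library. KXG33819 had 43.4 and 34.0 TPM in elongation zone LP, against 12.9 and 7.58 TPM in elongation zone SP (log2 fold change 2.23, adjusted p = 0.0515, edgeR). OQU92251 had 39.1 and 43.8 TPM in elongation zone LP, against 12.4 and 12.3 TPM in elongation zone SP, and 0.265 and 0.403 TPM in root apex LP, against 4.71 and 3.88 TPM in root apex SP. EER98021 had 29.9 and 84.4 TPM in elongation zone LP, against 7.75 and 10.9 TPM in elongation zone SP. In root apex LP it was almost undetected, with 0.315 and 0.199 TPM, against 3.60 and 2.99 TPM in root apex SP. EER97947 had 36.1 and 62.4 TPM in elongation zone LP, against 15.7 and 13.3 TPM in elongation zone SP. EER98987, the scarcest, had 5.99 and 13.5 TPM in elongation zone LP, against 2.09 and 1.76 TPM in elongation zone SP. OQU92251, EER98021, EER97947 and EER98987 had log2 fold changes of 2.08 to 3.04 in the elongation zone and adjusted p-values of 0.0852 to 0.147 (edgeR). These 6 had groups that did not overlap but did not pass the test.

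**Figure D5:**
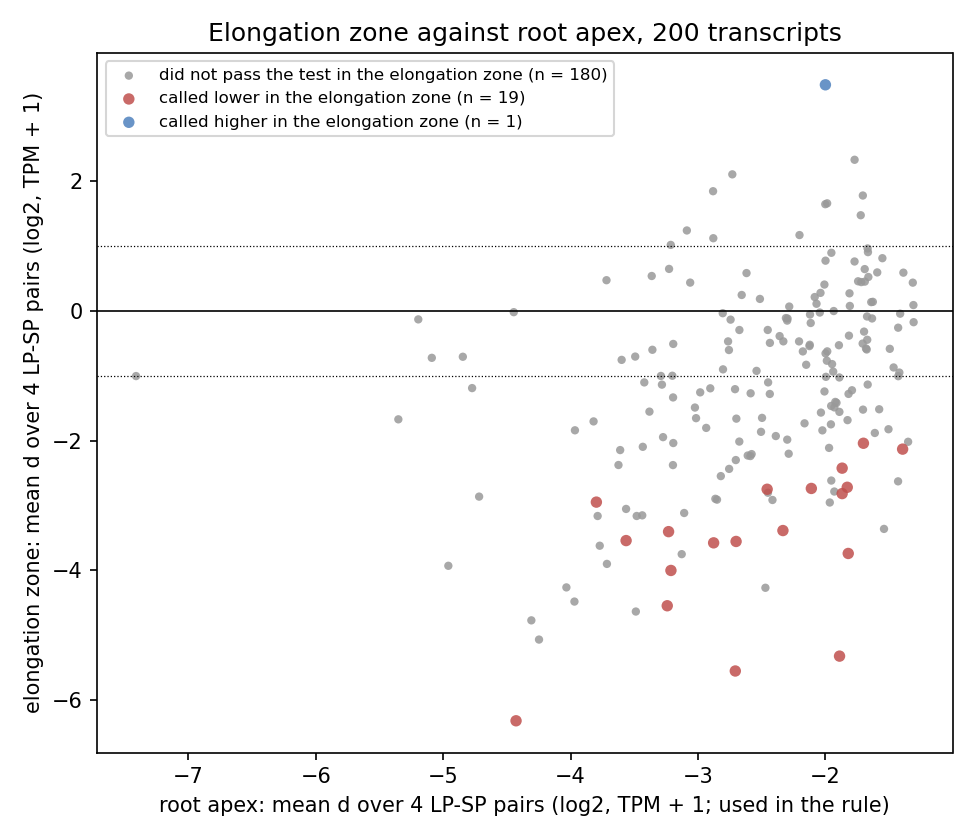
Mean d over the 4 elongation zone pairs (vertical) against mean d over the 4 root apex pairs (horizontal, used to choose the transcripts) for the 200 transcripts, log2 of TPM + 1. Red points are the 19 called lower and the blue point the 1 called higher in the elongation zone, and dotted lines mark -1 and 1. Points lie on either side of 0 at the smaller apex differences. Every point with a lower root apex mean d than KXG34440 (-3.72, with 0.48 in the elongation zone) lies below 0.

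The size of the apex difference was also set beside that in the elongation zone. Over the 200 transcripts Spearman's rho was 0.35 between the mean d of the root apex and that of the elongation zone, 0.14 between the lateral and the elongation zone d, and 0.40 between the root apex and the lateral d. These are descriptions over transcripts measured in the same libraries and pooled plants. The rule cut the range of the root apex and lateral d, and no rho over all transcripts is given. No strength of association is therefore read from them. Under SP, both elongation zone libraries were above both root apex libraries for 69 transcripts, below both for 84, and overlapped them for 47. These counts were not made over all transcripts. The median log2 difference under SP, elongation zone less root apex, was -0.18 for the 200. It was 0.16 for all transcripts at 1 TPM or more in the 3 SP apex libraries. In 10 transcripts the elongation zone was lower than the root apex by 3 or more on the log2 scale under SP (5%, background 0.557%), among them EES16044, KXG23555, KXG39529, KXG28236 and EER90629. The rule favoured high values in root apex SP, so this share and the medians above are descriptions. Their differences from the background are not read. Of the 10, 6 were under 1 TPM in an SP elongation zone library. The 4 with the elongation zone higher by 3 or more (2%, background 0.396%) included EES03134 and EES19896.

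Some scarce transcripts were not detected in the elongation zone under LP. At 0 counts in both LP libraries stood 8 transcripts, of which KXG23557 was at 0 in both SP libraries as well. KXG25017 had 139 counts over both SP libraries and was at least 46.3-fold lower under LP, taking a floor of 3 counts over the group, and OQU78990, with 78 counts, was at least 26.0-fold lower. OQU87177 and EES18104, with 53 and 45 counts, were at least 17.7-fold and 15.0-fold lower. These 4 were picked for their counts after seeing them and were not called by edgeR, and the bounds of OQU78990 and OQU87177 rest on SP replicate 2, since SP replicate 1 held 0 and 1 of their counts. Of the 200 transcripts, 29 were at 0 TPM in elongation zone LP replicate 2 and 9 in LP replicate 1. The low detection of LP replicate 2 moves with these zeros, and its part in them was not tested.

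Of the 7 transcripts with a gene name, 6 were annotated with a protein family in the study's list of responding genes, which the study chose on these samples and which is therefore no independent evidence of a direction. The family of glycoside hydrolases 17, which holds the beta-1,3-glucanases that cut callose and wall glucans, gave 2. KXG21874 (SORBI_3009G119200) had 22.2 and 84.8 TPM in root apex LP, against 256 and 226 TPM in root apex SP, and 576 and 1018 TPM in elongation zone LP, against 1369 and 848 TPM in elongation zone SP. EES16254 (SORBI_3008G146700) had 3.57 and 0.602 TPM in root apex LP, against 71.9 and 18.2 TPM in root apex SP, and 6.35 and 9.04 TPM in elongation zone LP, against 22.2 and 255 TPM in elongation zone SP. The groups of KXG21874 overlapped in the elongation zone, and those of EES16254 were apart, with SP libraries far from each other, and did not pass the test (log2 fold change -3.85, SE 1.33, adjusted p = 0.257, edgeR). Both match AT3G57240, a beta-1,3-glucanase of Arabidopsis, in the study's tables.

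EER93094 (SORBI_3001G012000), a cytochrome P450 of the family of oxygen-adding enzymes that make many plant hormones and defence compounds, fell in the elongation zone to 1.52 and 1.23 TPM under LP, against 32.7 and 17.3 TPM under SP (log2 fold change -3.86, SE 0.43, adjusted p = 0.0251, edgeR). In root apex it had 3.99 and 2.36 TPM under LP, against 15.4 and 25.0 TPM under SP. EER94063 (SORBI_3001G216500), with a Band 7 domain as in membrane-scaffold proteins such as stomatin, had 0.277 and 0.306 TPM in elongation zone LP, against 47.8 and 16.1 TPM in elongation zone SP, and just missed the threshold (log2 fold change -6.40, SE 0.99, adjusted p = 0.05, edgeR). EER94063 also had 3.98 and 0.616 TPM in root apex LP, against 55.3 and 34.1 TPM in root apex SP, and 0.240 TPM in lateral LP, against 16.6 TPM in lateral SP.

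EES07571 (SORBI_3004G299600), an oligopeptide transporter of the OPT superfamily, which moves small peptides and metal chelates across membranes, had 0.598 and 0.0303 TPM in root apex LP, against 4.32 and 4.81 TPM in root apex SP. In the elongation zone it had 0.819 and 0.871 TPM under LP, against 0.963 and 1.24 TPM under SP, and did not pass the test (log2 fold change -0.07, SE 0.88, adjusted p = 0.988, edgeR). EES08296 (SORBI_3005G091300) matches AT1G72180, in Arabidopsis a receptor kinase for secreted CEP peptides, and had 0.687 and 0.293 TPM in root apex LP, against 6.09 and 3.91 TPM in root apex SP, with 1.15 and 0.313 TPM in elongation zone LP, against 2.16 and 1.21 TPM in elongation zone SP. EER99070 (SORBI_3002G242300), an O-methyltransferase of the S-adenosylmethionine-dependent class that matches the Arabidopsis caffeoyl-CoA O-methyltransferase AT1G67980, had 14.9 and 18.6 TPM in root apex LP, against 70.3 and 46.5 TPM in root apex SP. In the elongation zone EER99070 had 14.6 and 13.5 TPM under LP, against 10.5 and 9.62 TPM under SP, and it did not pass the test (log2 fold change 0.80, adjusted p = 0.359, edgeR).

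The 200 transcripts are 0.425% of all 47110, and the lists drawn from the study's tables held few transcripts each. The protein family lists were taken only from the 184 transcripts of the study's own list of responding genes, chosen on these samples. They are not whole gene families, and the share to set beside them is the 3.26% of that list given below. Of 26 transcripts annotated as transporters 1 was among the 200 (EES07571), of 15 glycosyl transferases or hydrolases 2, and of 5 cytochromes P450 1. Of the 3 WRKY transcription factors, 4 GRAS proteins, 14 protein kinases and 2 wax synthases in that list, 0 were among the 200. Of the 696 transcripts matched to phosphate starvation-induced genes of Arabidopsis in the readable part of the study's list, 5 were among the 200 (0.718%). In the elongation zone 2 of the 559 tested of that list were called lower (0.358%, background 0.233%) and 11 higher (1.97%, background 0.415%) by edgeR. Of the 184 transcripts of the study's own list of responding genes, 6 were among the 200 (3.26%), and 2 of the 184 were called lower (1.09%) and 8 higher (4.35%) in the elongation zone. Among these, 1 transporter and 1 glycosyl transferase or hydrolase were called higher and 1 cytochrome P450 lower. None of the WRKY, GRAS, protein kinase and wax synthase transcripts was called (edgeR), and at an unadjusted p under 0.05 the WRKY and kinase lists had 1 lower each and the others 0.

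The 200 transcripts were shorter at the median than other transcripts of the SP apices. Their median length was 1462 bases (quartiles 908.75 and 1924.5, range 279 to 7295), beside 1840 bases (quartiles 1268 and 2624.5) for the transcripts at 1 TPM or more in the 3 SP apex libraries. The 76 transcripts with a d of -1 or lower in all elongation zone pairs had a median length of 1246.5 bases and a median level of 33.0 TPM in elongation zone SP, and the 32 under 5 TPM in every elongation zone library, 4 of them among these 76, had 1465.5 bases.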

How the data were processed

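Poly-A RNA of 3 root regions at 2 phosphorus levels was sequenced in 10 libraries. The authors used Trimmomatic to trim the reads, SAMtools to merge them and kallisto with the v3.4.1 sorghum genome, and deposited estimated counts per transcript (not normalized) and TPM, which kallisto scales within each library. Tool versions were not given in the sources used here. The deposited methylation tables were not used here.

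The members and lists were chosen with earlier results of these data known. Estimated counts were rounded and fitted with edgeR 4.0.16 (R 4.3.3, limma 3.58.1) to all 10 libraries as 6 groups, with TMM, filterByExpr and the quasi-likelihood test. There were 4 residual degrees of freedom, 33039 of 47110 transcripts were tested (70.1%), and p-values were adjusted by Benjamini and Hochberg with a threshold of 0.05. The fit was tested on simulated data. SE is the log2 fold change over the square root of F. The lateral libraries have no replicate. Alternatives were DESeq2 1.42.0, limma on log2(TPM + 1), other normalization, filter, blocks, subsets of libraries and pseudocounts (0.1 and 5 in place of 1).

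Named transcripts were those with a gene in the study's tables, the 8 most abundant in SP apices, the 8 with the lowest largest d, up to 8 called lower and 8 higher in the elongation zone, and 3 on each side of the threshold. These tables pair 775 identifiers (1.65%) with a gene, and 393 rows of the list of phosphate starvation-induced genes were left out of the copy. The gene reference used here annotates none of the identifiers, so promoters were not analysed here. Each replicate pools 10 plants, and whether replicates grew in separate tubs was not stated, so p-values measure the spread between such pools.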

Additional observations from a re-analysis of the deposited data

Results flagged for a closer look

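All 200 transcripts were lower under LP in every apex pair by selection, and in 27 of them (13.5%, background 17.3%) all 4 elongation zone pairs were higher under LP. The 9 of these that are named here are given below. Since the apex values chose the transcripts, the difference between regions was not tested. Mean d in the elongation zone was 3.49 for EER90629, 2.33 for EER98021, 2.11 for KXG21493, 1.85 for KXG33819, 1.78 for EER98987, 1.66 for OQU92251, 1.65 for EER97947, 0.54 for KXG34722 and 0.45 for EER99070. The first of these passed the elongation zone test and the other 8 did not (edgeR). The remainder of the 27 were not named.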

How the results depend on the processing

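The main limits were the 2 libraries per group, the unequal detection of elongation zone LP replicate 2, and the spread that the test borrows from other regions. The number of chosen transcripts called lower in the elongation zone was 19 with DESeq2 size factors, 37 with no filter on low counts, 64 with DESeq2, 0 with the 4 elongation zone libraries alone, 21 without the lateral libraries, 15 with a fragment length block (added after seeing the data) and 48 with limma on log2(TPM + 1). Leaving out 1 replicate of the apex or elongation zone gave 0 to 51, beside 0 to 2598 of all tested transcripts. With the replicate block it was 10 and the number called higher 1, and 8 of the 19 were among the 10. Same-numbered deviations correlated at r = 0.006 in the root apex and 0.135 in the elongation zone between LP and SP, and at 0.001 to 0.227 over all 6 pairs of groups, so the numbers were not shown to pair the libraries. The number called higher, 1 in the reported fit, was 3 without the filter, 12 with DESeq2, 0 with 4 libraries, 2 without the lateral libraries, 3 with limma and 0 to 14 leaving out 1 replicate, beside 0 to 1594 of all tested transcripts. All tested transcripts gave 743 lower and 1440 higher calls with DESeq2, 398 and 434 with limma, 160 and 287 with no filter, 27 and 88 with the replicate block, and 77 and 137 in the reported fit. With DESeq2 size factors they gave 79 and 146 (0.239% and 0.442%). The fit to the 4 elongation zone libraries gave 0 and 0 of all 27945 transcripts it tested. Without the lateral libraries it was 86 and 183 (0.291% and 0.619%), and with the fragment length block 51 and 122 (0.154% and 0.369%).

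The median d of the 200 in the elongation zone, -1.06, was -1.41 with a pseudocount of 0.1, -0.57 with 5 and -0.81 on TMM-normalized CPM + 1. The background median, -0.26 as reported, was -0.30, -0.19 and 0.00 in the same order. Passing the rule were 289 transcripts as reported, 694 with a pseudocount of 0.1, 121 with 5, 377 with CPM + 1 (184 of the 200 among them) and 458 without the root apex LP library with the whole root label. The 76 transcripts at -1 or lower in every elongation zone pair became 87 or 92 with 1 LP library (added after seeing the data).

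Of 606 alternative values for 38 transcripts, 484 kept direction and side of the threshold, 63 lost the call, 37 gained it and 22 turned. The log2 fold change of EES09048 (0.29) was -0.028 with the replicate block, -0.20 with the fragment length block and -0.51 with limma. OQU88169, EES07384 and EER92967 gave -0.054, -0.018 and -0.17 with limma. Leaving out 1 replicate gave these ranges: EES09048 -1.48 to 1.00, OQU88169 -0.62 to 0.92, EES07384 -0.75 to 1.23, EER92967 -0.26 to 0.46, EES07571 -0.39 to 0.16, KXG21874 -0.87 to 0.39, KXG22149 -0.81 to 0.25, EES16044 -3.55 to 2.88, KXG39529 -3.15 to 6.39, KXG23555 -8.76 to 4.19 and OQU77307 -6.22 to 3.72. The cause was not tested.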

Other observations

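Among the 200 transcripts, 21 lay in 11 pairs with accession numbers 1 or 2 apart. In the study's tables, which name a gene for few transcripts, such neighbours numbered 25 pairs of the same gene and 75 pairs of different genes, and all 75 of these were on the same chromosome. For 8 of the 11 pairs the mean d in the elongation zone had the same sign in both members. Like signs are common among the 200, of which 141 lay below 0 in the elongation zone fit (edgeR). Nothing about neighbours is therefore read from this count. KXG21872, next to the glycoside hydrolase KXG21874, had 11.9 and 12.3 TPM in elongation zone LP, against 42.9 and 33.2 TPM in elongation zone SP. EER88653 and EER88655 had 5.70 and 1.53 TPM and 1.27 and 0.527 TPM in root apex LP, against 41.8 and 22.2 TPM and 29.5 and 13.2 TPM in root apex SP.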
